A study of Mus musculus with 6 samples.

Results

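Genes of the heart's ion channels, of its sodium pump and of connexins were examined in cardiomyocyte RNA from mice given doxorubicin or vehicle. The 33 genes were chosen by symbol, as potassium, sodium, pacemaker and accessory calcium channel subunits, pump subunits, TRP channels and connexins other than Gja1. All 33 had a row among the 24972 gene rows of the deposited table, and all 33 reached the minimum mean of 10 normalized counts over the 6 libraries, as did 12477 rows in all. The libraries came from MX1gfp mice, which carry a green fluorescent protein reporter at the interferon-stimulated gene Mx1, so that both groups share that altered locus. Of these mice, 3 received phosphate-buffered saline (vehicle, the controls) and 3 received doxorubicin, an anthracycline that poisons topoisomerase II, at 25 mg per kg body weight. Each was a single intraperitoneal injection of 100 microlitres, and cells were isolated 48 hours later. By the labels' protocols the ventricles were digested and the myocytes settled by gravity, an enrichment without a sort, and neither age nor sex is given.

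Each heartbeat is an action potential shaped by these proteins in turn. Sodium and calcium channels depolarise the myocyte, voltage-gated potassium channels repolarise it, inward rectifiers hold its resting potential, and the sodium pump restores the gradients. Connexins pass the current between cells, and pacemaker channels drive spontaneous firing in the nodes. In the mouse ventricle repolarisation is fast and relies mainly on transient outward and ultrarapid potassium currents.

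The defining transcripts of cardiomyocytes were present in every library, and libraries differed in ways that touch every result here. The 12 cardiomyocyte markers summed to 758623 to 856444 across the controls and 191560.0 to 645903 after doxorubicin. Estimated from the spacing of low values, the libraries held about 7710000 to 11400000 reads in the vehicle group and 3670000 to 6170000 in the doxorubicin group, so depth and treatment cannot be told apart. Replicate 1 of the treated group resembled the controls, at Spearman correlations of 0.977 to 0.982 across the tested genes, against 0.860 to 0.914 for replicates 2 and 3. Xist above 100 normalized counts put vehicle replicate 3 and doxorubicin replicates 1 and 3 in the Xist class. The other 3 libraries made up the low-Xist class, and Y-linked transcripts did not enter the split. Neutrophil markers summed to 10.5 to 21.7 across the controls and 55.0 to 562 after doxorubicin, lymphocyte markers to 15.7 to 30.6 across the controls and 7.47 to 52.3 after doxorubicin and erythroid markers to 1211 to 2104 across the controls and 249.8 to 9027 after doxorubicin, the highest erythroid sum being in replicate 1. Results are therefore given by library, and where calls depend on doxorubicin replicate 1 they are given without it too.

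Start regions of 4 members are shown first, since these genes had the largest differences in each direction on the log2(value + 1) scale among the members listed in the RefSeq promoter table (GRCm38.p6). Kcna5 and Scn7a were higher after doxorubicin, and Hcn4 and Kcnd2 were lower. Each line gives the 250 bases before the annotated start, 5′ to 3′ on the gene's own strand, with matches to any of 5 short motifs in capitals.
Kcna5: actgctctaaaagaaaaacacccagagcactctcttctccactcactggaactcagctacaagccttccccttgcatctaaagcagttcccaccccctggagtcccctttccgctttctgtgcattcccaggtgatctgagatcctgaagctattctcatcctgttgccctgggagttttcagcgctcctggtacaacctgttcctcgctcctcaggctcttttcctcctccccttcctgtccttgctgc
Scn7a: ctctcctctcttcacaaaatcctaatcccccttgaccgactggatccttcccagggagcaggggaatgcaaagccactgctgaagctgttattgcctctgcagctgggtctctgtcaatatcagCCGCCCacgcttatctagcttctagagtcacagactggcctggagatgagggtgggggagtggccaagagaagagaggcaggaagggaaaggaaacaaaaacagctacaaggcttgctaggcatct
Hcn4: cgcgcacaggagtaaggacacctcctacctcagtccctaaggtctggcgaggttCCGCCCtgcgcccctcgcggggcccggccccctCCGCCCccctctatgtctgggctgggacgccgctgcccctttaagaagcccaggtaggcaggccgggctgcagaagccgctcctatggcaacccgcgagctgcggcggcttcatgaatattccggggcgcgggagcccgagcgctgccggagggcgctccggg
Kcnd2: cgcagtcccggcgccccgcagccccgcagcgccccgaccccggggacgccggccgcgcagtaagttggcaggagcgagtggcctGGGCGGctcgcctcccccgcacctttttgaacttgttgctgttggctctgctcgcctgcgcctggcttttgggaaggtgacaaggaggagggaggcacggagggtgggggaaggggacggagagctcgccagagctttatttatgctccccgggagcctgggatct
These windows lie at chr6:126535556-126535805, minus strand, chr2:66784911-66785160, minus strand, chr9:58822699-58822948, plus strand and chr6:21215096-21215345, plus strand, respectively. The motifs, searched on both strands, were the TATA box, the GC box, an E-box, a GATA site and the glucocorticoid receptor half-site. No motif letters were found in the Kcna5 window, 1 GC box was found in Scn7a, 2 in Hcn4 and 1 in Kcnd2. GC content was 53.2% in Kcna5 and in Scn7a, 71.2% in Hcn4 and 68.8% in Kcnd2. Of the 33 members, 24 had a window in that table, with a median GC content of 64.0% against 52.4% over all 32851 windows. Here and for the motifs, members were counted by their first window. All windows were counted with no reduction per gene and no filter on expression, so the sets are unlike. The GC box, searched as GGGCGG, was present in 15 of the 24 (62.5%, against 32.7% of all windows). The TATA box, searched as TATAAA, was found in 0 of them and in 12.4% of all windows. The E-box, searched as CACGTG, was found in the windows of Kcnj2 and Trpm7 and in 6.02% of all windows. The GATA site, searched as TGATAA, was found in Kcnj2 and in 7.94% of all windows. The glucocorticoid half-site, searched as AGAACA, was found in Scn4b and in 16.1% of all windows. A match is a string of letters, not a shown binding site.

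The comparison asked how RNA of these genes differed between doxorubicin and vehicle. Of the 33 members, 27 (81.8%) were lower in the doxorubicin group and 6 were higher, whereas 50.4% of the 12477 tested genes were lower. The median log2 difference of the members was -1.25, against -0.0046 over all tested genes, and 20 members were lower by at least 1 log2 unit, as were 6.39% of all tested genes. The lowest values belonged to Hcn4 (-2.14) and Kcnd2 (-1.96), and the highest to Kcna5 (1.50) and Scn7a (1.22). Each difference subtracts the control mean from the doxorubicin mean after log2(value + 1), so changes of sparse genes come out too small. In bulk RNA, fewer cardiomyocytes and less RNA of these genes per cardiomyocyte cannot be told apart.

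With all 6 libraries no member passed the test, which was limma with Benjamini-Hochberg adjustment over all tested genes at 0.05: 0 members were called in either direction, and so were 0% of the genes. The smallest adjusted p was 0.0859, shared by 10 members. At an unadjusted p under 0.05, 21 members were lower (63.6%, background 19.3%) and 1 was higher (3.03%, background 16.7%). The doxorubicin values lay wholly below the vehicle values in 12 members (36.4%, background 22.6%) and wholly above them in 1 (background 19.2%). Without doxorubicin replicate 1, limma called 24 members lower (72.7%, background 21.8%) and 2 higher (6.06%, background 19.3%), Kcna5 and Scn7a. That fit is singled out because of the values, replicate 1 being the treated library most like the controls. Dropping it narrows the spread of the treated group, and calls rose over all genes too. Calls and adjusted p-values without it, here and below, are therefore descriptive only. Leaving out any library other than doxorubicin replicate 1 gave fewer members lower at an unadjusted p under 0.05, and the background fell too. The counts were 10 without doxorubicin replicate 2 (background 15.4%), 10 without replicate 3 (13%) and 11 without vehicle replicate 3 (10.2%). They were 14 without vehicle replicate 2 (11.3%) and 15 without vehicle replicate 1 (12.8%). A fit with fewer libraries is also weaker, and that was not told apart from the weight of single libraries. Scaling all libraries to equal totals left 7 members wholly below (background 10.1%) and 3 wholly above the controls (background 36.7%). At an unadjusted p under 0.05 that scaling gave 15 lower (background 8.2%) and 5 higher (background 31.3%). Leaving out vehicle replicate 1 gave 20 wholly below (background 28.2%) and 3 wholly above (background 24.8%). An exact permutation test of 3 libraries against 3 cannot give a two-sided p below 0.1, so none is given for single genes.

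**Figure D1:**
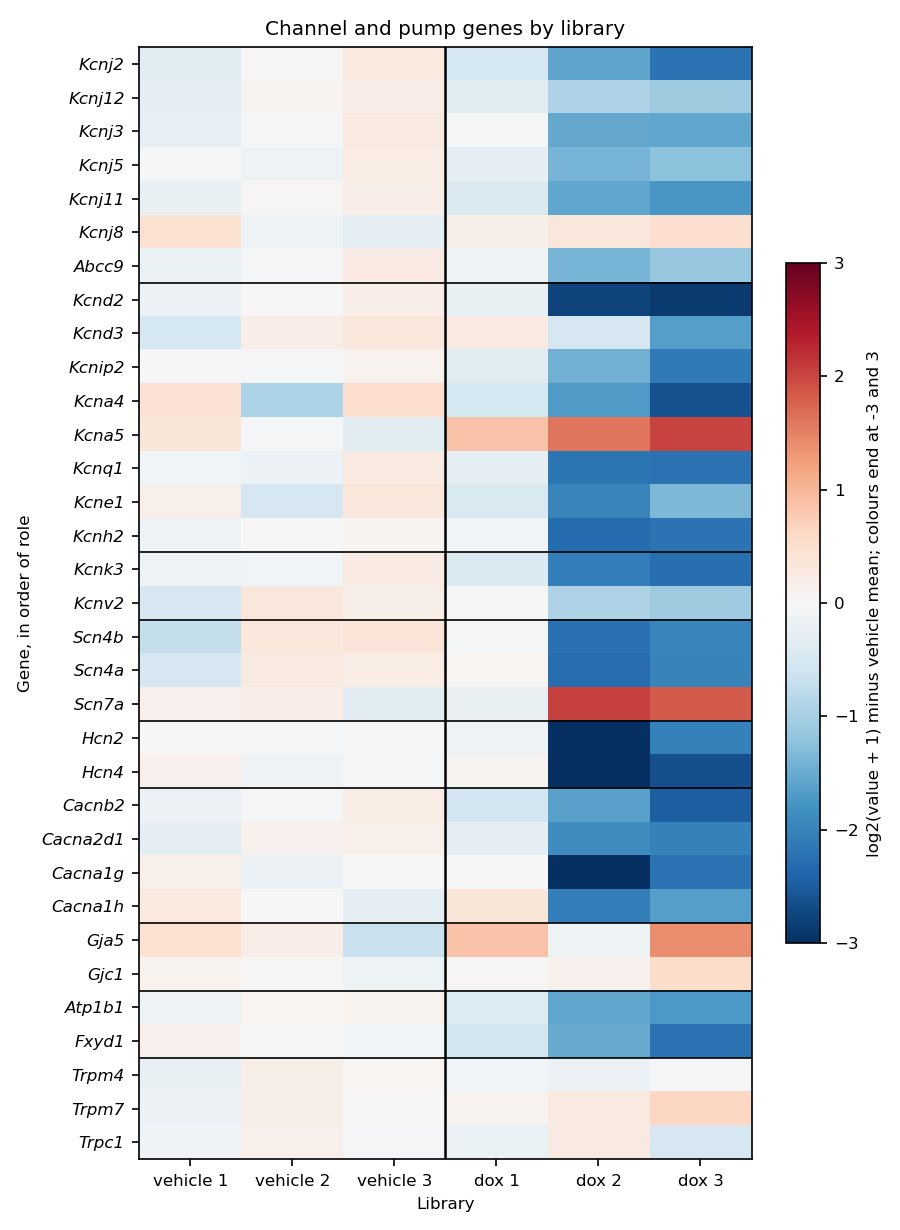
Colour shows log2(value + 1) minus the vehicle mean for each of the 33 genes (rows, grouped by role with lines between groups) in each of the 6 libraries (columns, "dox" for doxorubicin). Doxorubicin replicates 2 and 3 are blue for most genes and red for Kcna5 and Scn7a, while replicate 1 stays close to the vehicle libraries; Hcn4 in replicate 2, at -3.86, lies beyond the end of the scale.

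The libraries did not share the difference equally. Doxorubicin replicate 1 had 13 members below the vehicle range, 17 within it and 3 above it. In replicate 2 the numbers were 24, 4 and 5, and in replicate 3 they were 26, 1 and 6. Over all tested genes 34.6%, 40.3% and 43.0% lay below the vehicle range in replicates 1 to 3, and 29.4%, 39.8% and 42.3% lay above it. In 24 members replicates 2 and 3 were both below every vehicle library, as were 32.9% of all tested genes. In 12 of those 24 replicate 1 was not below, as in 1280 of the 4100 tested genes with replicates 2 and 3 both below. Those 1280 were 10.3% of all tested genes, and the 12 were among 33 members. The median change of the members from the vehicle mean was -0.16, -1.56 and -1.73 in replicates 1 to 3. Among the 3 doxorubicin libraries the lowest value was in replicate 3 for 16 members, in replicate 2 for 12 and in replicate 1 for 5. The pacemaker genes Hcn2 and Hcn4 and the T-type calcium channel genes Cacna1g and Cacna1h were all lowest in replicate 2, and Kcnj2, Kcnip2, Cacnb2 and Fxyd1 were lowest in replicate 3. Within the low-Xist class (2 vehicle, 1 doxorubicin) the median of the members was -1.45. Within the Xist class (1 vehicle, 2 doxorubicin) the member median was -1.12. In each class 27 members were lower and 6 higher, but these were not all the same genes. Gja5 was at -0.47 in the low-Xist class and 1.79 in the Xist class, and Trpc1 at 0.25 and -0.32.

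The inward rectifiers hold the resting potential, and 6 of the 7 genes in that group, which includes the ATP-sensitive channel, were lower. Kcnj2 (chromosome 11, 111066164 to 111076825, GRCm38, as for all positions here), a main pore subunit of the resting inward rectifier current, had 323, 417 and 492 normalized counts in control replicates 1 to 3 and 279, 135 and 85.8 in treated replicates 1 to 3. Every doxorubicin library was below every vehicle library, and replicate 3 was the lowest. The group mean went from 411 ± 84.7 to 167 ± 100.1 (SD, n = 3 in each group), a log2 difference of -1.44 (SE 0.40, limma adjusted p 0.0859). Its partner Kcnj12 (chromosome 11, 61022564 to 61073269) had 293, 381 and 412 in the vehicle libraries and 284, 188 and 172 after doxorubicin, with a smaller difference of -0.77 (SE 0.23, adjusted p 0.0859). Its groups did not overlap either, though doxorubicin replicate 1 lay just under the lowest vehicle library.

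Kcnj3 and Kcnj5 encode the acetylcholine-gated potassium channel, best known from the atria and the sinoatrial node. Kcnj5 (chromosome 9, 32314706 to 32344380) had 602, 557 and 723 normalized counts in controls and 511, 238 and 266 after doxorubicin, which did not overlap (log2 difference -0.97, SE 0.29, adjusted p 0.0859). Kcnj3 ranged from 694 to 987 across the controls and 276 to 791 after doxorubicin (-1.05, adjusted p 0.11), and its doxorubicin replicate 1 lay inside the vehicle range. The atrial markers were higher in all 6 genes tested, the 7 listed summed to 565 to 672 across the controls and 691 to 1663 after doxorubicin, and the highest sum was in replicate 1. None of the 7 was at 0 in every library, and their part in the values of Kcnj3 and Kcnj5 was not tested.

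The ATP-sensitive potassium channel couples metabolism to excitability and is built from a pore subunit and a sulfonylurea receptor. Its ventricular pore gene Kcnj11 (chromosome 7, 46097123 to 46100952) had 1395, 1667 and 1891 normalized counts in controls and 1216, 552 and 484 after doxorubicin. The groups did not overlap, and replicates 2 and 3 held 33.4% and 29.3% of the vehicle mean (log2 difference -1.25, SE 0.34, adjusted p 0.0859). Abcc9 (chromosome 6, 142587862 to 142702766), the receptor subunit and the gene with the most normalized counts in this group (though not per kilobase), had 2848, 3152 and 3842 in vehicle and 2955, 1237 and 1487 in doxorubicin libraries. Replicate 1 lay within the vehicle range and the other doxorubicin libraries below it (-0.89, SE 0.33, adjusted p 0.106).

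Kcnj8, the other pore gene of that channel, lies beside Abcc9 (chromosome 6, 142564837 to 142571614) and is typical of vascular smooth muscle and pericytes. It was not lower: its values ran from 244 to 411 across the controls and 336 to 424 after doxorubicin, with overlapping groups and a log2 difference of 0.33 (SE 0.22, adjusted p 0.299). The 10 markers of mural cells, which are also known to express Abcc9, summed to 7061 to 12293 across the controls and 8723 to 12413 after doxorubicin. Of the 9 tested, 4 were lower and 5 higher, with a median of 0.15 and none with groups that did not overlap. No listed mural marker was at 0 in every library, and the part of these cells in Kcnj8 and Abcc9 was not tested.

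Transient outward and delayed rectifier channels repolarise the myocyte, and 7 of these 8 genes were lower while Kcna5 was higher. Kcnd2 (chromosome 6, 21215346 to 21729805), a pore subunit of the fast transient outward current, had 239, 266 and 309 normalized counts in controls and 229.7, 38.5 and 36.2 after doxorubicin. Replicate 1 lay just below the lowest vehicle library, whereas replicates 2 and 3 held 14.2% and 13.3% of the vehicle mean. The mean went from 271 ± 35.2 to 101 ± 111 (SD, n = 3 in each group), a log2 difference of -1.96 (SE 0.65, limma adjusted p 0.0891), and without replicate 1 the difference was -2.82 (adjusted p 0.000113, the lowest over the alternatives, which reached 0.259).

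The related pore gene Kcnd3 ranged from 91.7 to 168 across the controls and 41.5 to 159 after doxorubicin, and only doxorubicin replicate 3 was below the vehicle range (-0.64, SE 0.47, adjusted p 0.352). Kcnip2 (chromosome 19, 45792346 to 45816422), the accessory subunit that brings these channels to the membrane, had 1479, 1501 and 1653 in vehicle and 1198, 569 and 356 in doxorubicin libraries. Its groups did not overlap (-1.31, SE 0.39, adjusted p 0.0859). Kcna4, which carries the slow transient outward current, was the lowest member per kilobase and in normalized counts, at 6.74 to 20.3 across the controls and 1.45 to 9.45 after doxorubicin, or about 1 to 30 estimated reads, and its difference of -1.61 had an SE of 0.74 (adjusted p 0.157).

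Kcna5 (chromosome 6, 126532551 to 126535555), the pore gene of the ultrarapid delayed rectifier current, was higher in every doxorubicin library. It had 362, 277 and 224 normalized counts in control replicates 1 to 3 and 515, 862 and 1152 in treated replicates 1 to 3. All 3 doxorubicin libraries exceeded all 3 vehicle libraries, and replicate 3 was the highest. The mean went from 288 ± 69.5 to 843 ± 319 (SD, n = 3 in each group), 293% of the vehicle mean, a log2 difference of 1.50 (SE 0.31, limma adjusted p 0.0859). Without replicate 1 limma called it higher (1.82, adjusted p 0.000821, the lowest over the alternatives, which reached 0.256), and it was the only member whose groups did not overlap in the upward direction. Over other scalings, filters and fits its difference stayed between 1.23 and 1.82. The 10 macrophage markers summed to 2646 to 2839 across the controls and 4255 to 15361 after doxorubicin. For the 10 endothelial markers the sums were 15462 to 20227 across the controls and 24216 to 31200.3 after doxorubicin. Both sums were thus higher in every doxorubicin library than in any control. The same held for the atrial, conduction system, fibroblast and neutrophil sums, but not for the mural, glial, lymphocyte, erythroid and cardiomyocyte sums. What part such cells had in the Kcna5 value was not tested.

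The slow and rapid delayed rectifiers, which end the action potential in large mammals, were low in doxorubicin replicates 2 and 3. Kcnq1 (chromosome 7, 143106877 to 143427050), the pore gene of the slow current, had 355, 333 and 458 normalized counts in controls and 307, 81.9 and 81.0 after doxorubicin, with no overlap (-1.57, SE 0.49, adjusted p 0.0863). Its accessory subunit Kcne1 ranged from 52.1 to 94.6 across the controls and 18.1 to 54.0 after doxorubicin (-1.26, adjusted p 0.0891). Kcnh2, the pore gene of the rapid current, ranged from 665 to 759 across the controls and 144 to 673 after doxorubicin (-1.53, adjusted p 0.0988). In both Kcne1 and Kcnh2 replicate 1 lay within the vehicle range, and the other doxorubicin libraries were below it. For Kcne1, replicates 2 and 3 held only about 15 and 19 estimated reads. The antisense transcript Kcnq1ot1 overlaps Kcnq1, Kcnd3os overlaps Kcnd3 and Nme7 overlaps Atp1b1 on the opposite strand, and since the use of strand is not given in the sources used here, reads of such partners may not be told apart.

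**Figure D2:**
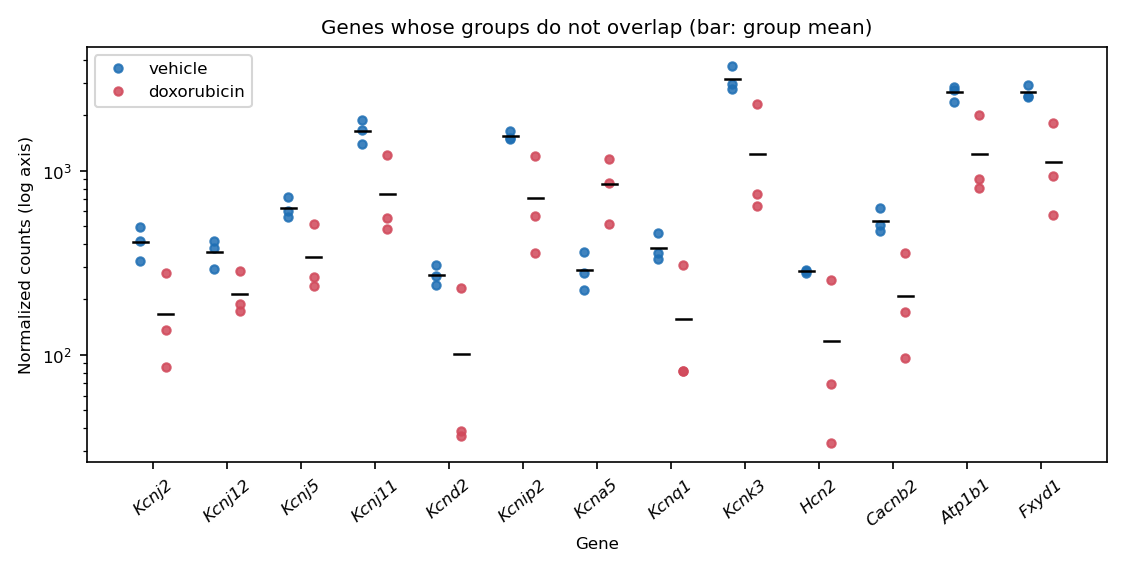
Normalized counts (log axis) of the 13 genes in which all doxorubicin libraries lay on one side of all vehicle libraries; each point is a library (blue vehicle, red doxorubicin) and the bar is the group mean. In 12 genes the red points lie below the blue, replicate 1 being the uppermost red point, and in Kcna5 the red points lie above.

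The background channel and the electrically silent subunit among the members were both lower. Kcnk3 (chromosome 5, 30588170 to 30625270), a tandem-pore channel that carries a background current sensitive to acid, had the highest control mean per kilobase of exon among the potassium channel pore members. It had 2788, 2941 and 3711 normalized counts in controls and 2305, 748 and 645 after doxorubicin, which did not overlap. The mean went from 3147 ± 495 to 1233 ± 930.2 (SD, n = 3 in each group), a log2 difference of -1.59 (SE 0.45, limma adjusted p 0.0859). Kcnv2, a silent subunit that modifies other voltage-gated channels, ranged from 71.8 to 129 across the controls and 48.2 to 102 after doxorubicin (-0.67, SE 0.34, adjusted p 0.194).

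The sodium channel genes split in direction. Scn4b (chromosome 9, 45138624 to 45154155), a beta subunit that shapes channel gating and adhesion, had 271, 553 and 584 normalized counts in controls and 423, 92.8 and 111 after doxorubicin. Vehicle replicate 1 was low among the vehicle libraries and doxorubicin replicate 1 lay above it, so the groups overlapped (-1.43, SE 0.58, adjusted p 0.122). Scn4a, the pore gene of skeletal muscle sodium channels, likewise had doxorubicin replicate 1 within the control range, with values of 202 to 346 across the controls and 57.7 to 299 after doxorubicin (-1.41, SE 0.58, adjusted p 0.129).

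Scn7a (chromosome 2, 66673426 to 66784910), an atypical channel that senses extracellular sodium and is known from glia, is detailed because of its values. It had 198, 207 and 143 normalized counts in controls and 154, 756 and 646 after doxorubicin. Replicates 2 and 3 were far above the vehicle range at 414% and 354% of the vehicle mean, while replicate 1 lay within it. The log2 difference was 1.22 (SE 0.56, limma adjusted p 0.156), and without replicate 1 it was 1.95 (adjusted p 0.000379, the lowest over the alternatives, which reached 0.383). The 10 glial markers summed to 173 to 230.1 across the controls and 157 to 227 after doxorubicin, and of the 5 tested 3 were lower and 2 higher. The 10 fibroblast markers summed to 7511 to 9506 across the controls and 10125 to 25187 after doxorubicin, with 9 higher and 1 lower. No marker of either list was at 0 in every library, and the part of those cells in the Scn7a value was not tested.

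Pacemaker channels carry the hyperpolarisation-activated current of nodal cells and occur at low density in ventricular myocytes. Hcn2 (chromosome 10, 79716634 to 79736108) was tight among the vehicle libraries at 286, 279 and 288 normalized counts, against 254, 32.9 and 69.2 after doxorubicin. The groups did not overlap, although replicate 1 was close to the vehicle values and replicate 2 was by far the lowest. The mean went from 284 ± 5.13 to 119 ± 119 (SD, n = 3 in each group), a log2 difference of -1.75 (SE 0.63, limma adjusted p 0.102).

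Hcn4 (chromosome 9, 58822949 to 58863175), the main pacemaker channel gene of the sinoatrial node, had the lowest log2 difference of the members with a pseudocount of 1 and is given for that reason. With a pseudocount of 8 Kcnd2 was lower, at -1.82 against -1.79, and so it was without doxorubicin replicate 2, at -1.55 against -1.28. By the ratio of group means several members, Kcna4 (0.313) and Kcnd2 (0.374) among them, were below Hcn4 (0.424). Its values were 151, 128 and 135 in controls and 146, 8.51 and 21.1 after doxorubicin. Replicate 1 lay within the vehicle range and replicates 2 and 3 held 6.17% and 15.3% of the vehicle mean. Those low values rest on only about 7 and 14 estimated reads in replicates 2 and 3. The log2 difference of -2.14 (SE 0.87, adjusted p 0.124) became -3.26 without replicate 1 (adjusted p 0.000471, the lowest over the alternatives, which reached 0.297) and -1.28 without replicate 2. Markers of the conduction system were sparse: the 8 genes summed to 285 to 327 across the controls and 342 to 622 after doxorubicin, Isl1 was at 0 in every library, and of the 5 tested 3 were lower and 2 higher. Their part in the Hcn4 value was not tested.

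All 4 calcium channel members were lower. Cacna2d1 (chromosome 5, 15934264 to 16374511), an accessory subunit that carries the L-type channel to the membrane, had 1441, 1948 and 1974 normalized counts in controls and 1459, 477 and 436 after doxorubicin. Replicate 1 exceeded the lowest vehicle library, and replicates 2 and 3 lay far below it (-1.40, SE 0.44, adjusted p 0.0865). Cacnb2 (chromosome 2, 14603861 to 14988811), the cytoplasmic beta subunit of the same channel, had 472, 509 and 624 in controls and 356, 170.1 and 95.4 after doxorubicin, with no overlap (-1.56, SE 0.43, adjusted p 0.0859).

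The T-type pore genes Cacna1g and Cacna1h serve pacemaking and low-voltage calcium entry. Cacna1g ranged from 114 to 143 across the controls and 13.5 to 129 after doxorubicin (-1.79, SE 0.70, adjusted p 0.118). Cacna1h ranged from 56.4 to 84.3 across the controls and 15.9 to 88.7 after doxorubicin (-1.12, SE 0.59, adjusted p 0.204), and its doxorubicin replicate 1 was the highest of all 6 libraries. In both genes replicates 2 and 3 were below every vehicle library, and without replicate 1 limma called both lower, at -2.69 and -1.86. Replicates 2 and 3 held only about 11 and 18 estimated reads of Cacna1g, and 13 and 14 of Cacna1h.

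Both sodium pump members were lower in every doxorubicin library. The pump exports sodium and imports potassium, its beta subunit Atp1b1 being needed for assembly, while Fxyd1 (phospholemman) restrains it until phosphorylated. Atp1b1 (chromosome 1, 164437099 to 164458355) had 2372, 2755 and 2862 normalized counts in controls and 1996, 898 and 801 after doxorubicin. The mean went from 2663 ± 257 to 1232 ± 663 (SD, n = 3 in each group), a log2 difference of -1.23 (SE 0.34, limma adjusted p 0.0859).

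Fxyd1 (chromosome 7, 31051678 to 31055873) had 2913, 2558 and 2516 in vehicle and 1816, 936 and 572 in doxorubicin libraries, again without overlap (-1.42, SE 0.38, adjusted p 0.0859). Without replicate 1 limma called both pump genes lower, at -1.64 for Atp1b1 and -1.86 for Fxyd1. Per kilobase of annotated exon these were the highest members, at 2582 normalized counts per kb for Fxyd1 and 1032 for Atp1b1 in the vehicle mean. Kcnk3 followed at 826, Kcnip2 at 619.5 and Kcnj11 at 525 per kb. In the doxorubicin mean Kcna5, at 295 per kb, lay between Kcnk3 (323) and Kcnip2 (284), from 101 per kb in the vehicle mean.

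None of the 2 connexin and 3 TRP members had groups that did not overlap. Gjc1 (chromosome 11, 102799477 to 102819686), a connexin of nodal tissue, had 163, 154 and 136 normalized counts in controls and 155, 163 and 221 after doxorubicin, with overlapping groups (0.24, SE 0.18, adjusted p 0.366). Gja5, the connexin of atria, conduction fibres and arterial endothelium, ranged from 26.3 to 58.6 across the controls and 38.5 to 112 after doxorubicin (0.71, SE 0.45, adjusted p 0.279). Its difference was -0.47 in the low-Xist class (2 vehicle, 1 doxorubicin) and 1.79 in the Xist class (1 vehicle, 2 doxorubicin). Each of these values rests on a group of 1 library. Endothelial markers, with 9 of 10 higher and a median of 0.66, and atrial markers, with a median of 0.98, were higher too, and their part in the Gja5 value was not tested.

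Among the TRP channels, Trpm7 (chromosome 2, 126791558 to 126876261), a magnesium-permeable channel fused to a kinase, had 377, 484 and 422 normalized counts in controls and 457, 514 and 654 after doxorubicin (0.33, SE 0.18, adjusted p 0.221). Replicates 2 and 3 exceeded the vehicle range and replicate 1 lay within it. Trpm4, a calcium-activated cation channel, ranged from 127 to 168 across the controls and 132 to 144 after doxorubicin (-0.10, SE 0.16, adjusted p 0.669), all doxorubicin libraries being within the vehicle range. Trpc1, a nonselective cation channel subunit, ranged from 55.6 to 66.9 across the controls and 42.1 to 72.8 after doxorubicin (-0.14, SE 0.25, adjusted p 0.693). The signs for Trpm4 and Trpc1 reversed, to 0.20 and 0.15, when libraries were scaled to equal totals, a scaling that moved the median of all genes to 0.29.

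**Figure D3:**
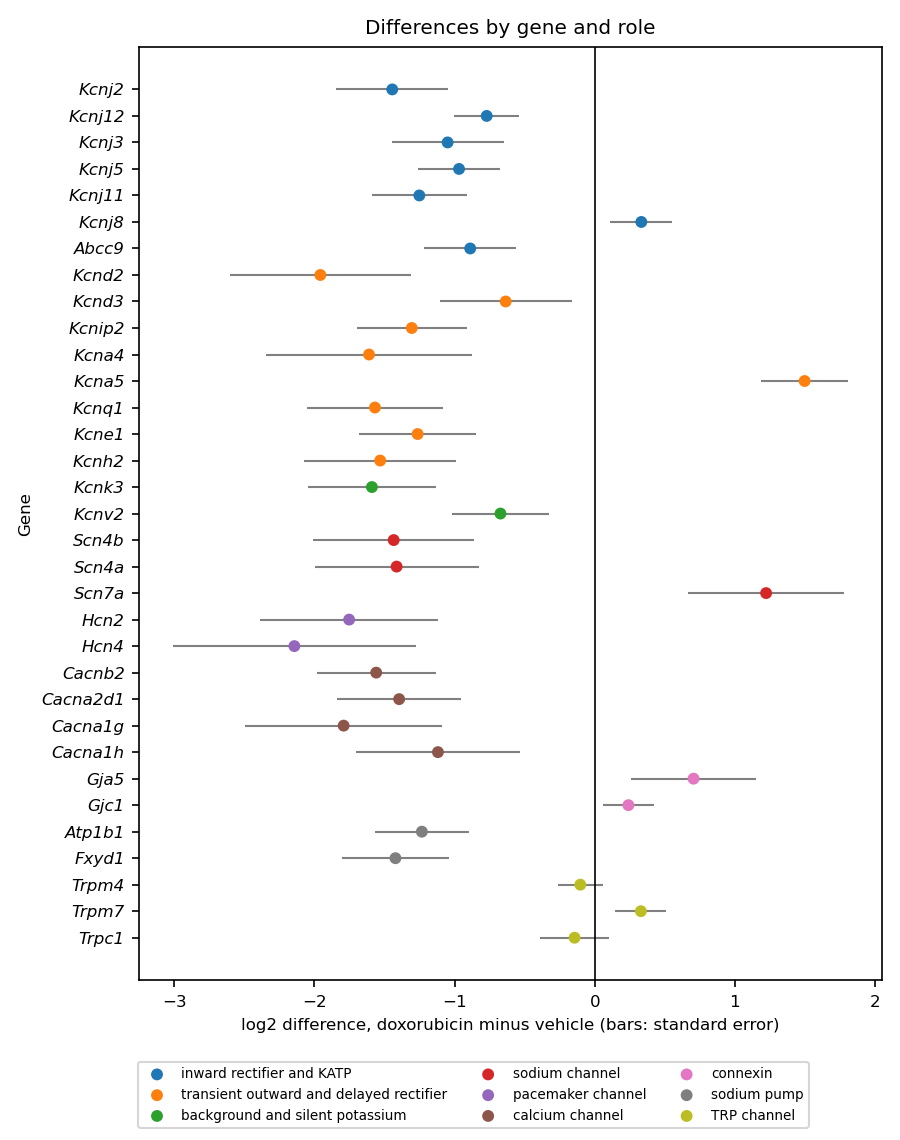
Points are log2 differences, doxorubicin minus vehicle, for each of the 33 genes (vertical axis, coloured by role), with bars of 1 standard error from limma. Of the 33 points, 25 lie between -2.14 and -0.64, Kcna5 and Scn7a lie at 1.50 and 1.22, and the connexins and TRP channels lie between -0.14 and 0.71.

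The change of the members in each library was set beside that of the cardiomyocyte markers, which include contractile and calcium-handling genes. All 12 markers were lower, with a median log2 difference of -1.44. The doxorubicin values lay wholly below the vehicle values in 9 of the 12, and in 12 of the 33 members (background 22.6%). At an unadjusted limma p under 0.05, 7 of the 12 markers and 21 of the 33 members were lower (background 19.3%). The median change of the 12 markers was -0.44, -1.74 and -2.18 in doxorubicin replicates 1 to 3, against -0.16, -1.56 and -1.73 for the members. In replicate 2, 12 members were below the marker median and in replicate 3, 10 were, while 5 were in replicate 1. The most reduced members, Hcn4 in replicate 2 at -3.86 and Kcnd2 in replicate 3 at -2.86, were below it, and Kcnj12, Kcnv2 and Abcc9 were above it in both. Whether the lower level of the channel genes follows the share of cardiomyocyte RNA in the libraries was not tested.

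**Figure D4:**
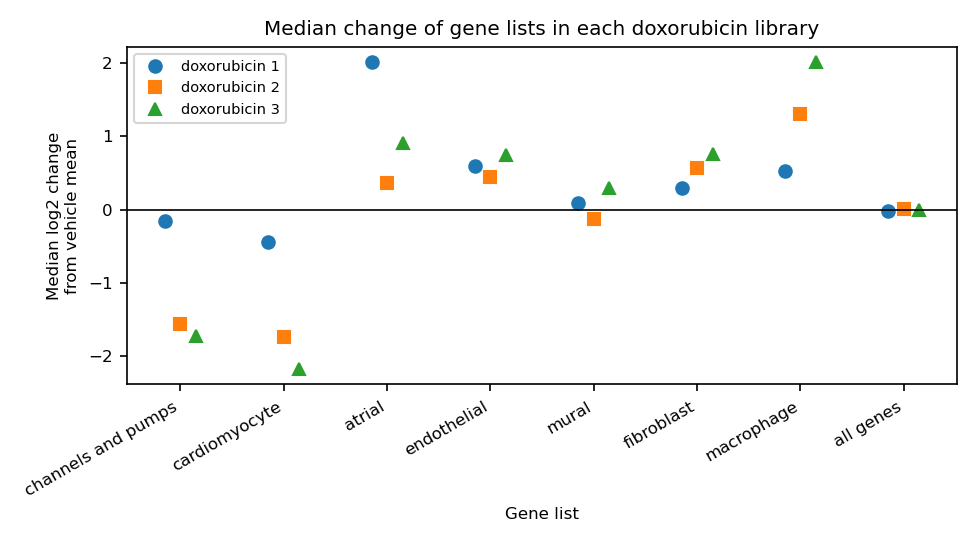
Median log2 change from the vehicle mean of each gene list (horizontal axis) in each doxorubicin library (circle replicate 1, square replicate 2, triangle replicate 3). The channel and pump genes and the cardiomyocyte markers lie below 0, at -0.16 and -0.44 in replicate 1 and at -1.56 or lower in replicates 2 and 3, while macrophage, endothelial and fibroblast medians lie above 0.

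Other genes of these families, in 3 lists of related subunits, were counted in the same way. Of 49 further potassium channel genes, 22 reached the minimum level, with 11 lower, 11 higher and a median of 0.12. Of 31 further sodium, pacemaker and calcium channel genes, 30 were in the table and 14 were tested, with 6 lower, 8 higher and a median of 0.29. Of 34 further connexin, pump and TRP genes, 15 were tested, with 7 lower, 8 higher and a median of 0.27. At 0.05 limma called 0 genes in each list, and the groups did not overlap in 10 lower (19.6%, background 22.6%) and 12 higher (23.5%, background 19.2%) genes of the 51 tested. At an unadjusted p under 0.05, 9 of the 51 were lower (17.6%, background 19.3%) and 12 higher (23.5%, background 16.7%).

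The genes with the most normalized counts in the potassium list and in the sodium, pacemaker and calcium list were lower. Kcng2, a silent potassium subunit, had 997, 971 and 1278 normalized counts in vehicle and 771, 477 and 329 in doxorubicin libraries (-1.12, adjusted p 0.0859), without overlap. Cacna1c, the L-type calcium channel pore, had 1519.7, 2165 and 2419 in controls and 2136, 844 and 683 after doxorubicin (-0.90, adjusted p 0.163), its replicate 1 lying within the vehicle range.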

How the data were processed

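RNA from cardiomyocytes was sequenced in 6 libraries, 3 per group, with groups and replicate numbers taken from the sample titles. The authors deposited a signal, normalized counts of reads for each gene, with 1 column for each library and no value under 0. Per the labels, reads were aligned with STAR (version 2.6.1a in the submitters' processing notes) in BaseSpace RNAseq Alignment 2.0.2 to mm10 with RefSeq genes, followed by RNA-seq Differential Expression 1.0.1, and the notes also name Salmon. How values were normalized or filtered, and whether strand was used, is not given in the sources used here. Of 24972 rows, 0 lacked a name.

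The values, as deposited, were increased by a pseudocount of 1 and taken to log2. Rows whose mean reached 10 entered the test, limma 3.58.1 under R 4.3.3, two-sided, with a mean-dependent prior variance and Benjamini-Hochberg adjustment over 12477 rows. SE is limma's moderated standard error, SD is over the 3 libraries of a group, and p-values measure the spread between these libraries. The fit was tested on simulated data whose groups were alike in spread. That test does not cover groups of unequal spread, such as those of Hcn2 (SD 5.13 in controls, 119 after doxorubicin). Depth was estimated from the most common low value of a library as the worth of 1 read, which is approximate. Whole reads could not be recovered for nearly all genes, so no count test was used. Coordinates are from RefSeq GRCm38.p6, the assembly of mm10, and exon lengths from GENCODE M21. Figures used Python 3.11.15 and matplotlib 3.10.9.

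All 33 members were to be named, with values in every library for those with groups that do not overlap and for the most abundant of each role. Scn7a and Hcn4 were given in detail after their values were seen. Results of some related genes are not reported here. Members and lists were chosen with earlier results of these data known. Alternatives covered pseudocounts of 0.5 and 8, no filter and a minimum mean of 50, equal totals, quantile normalization, moderation, library weights, a covariate for Xist class, a replicate block, leaving out each library, and a threshold of 0.10 that was added after seeing the data.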

Additional observations from a re-analysis of the deposited data

How the results depend on the processing

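Leaving out doxorubicin replicate 1 changed the calls most. Over the fits that leave out 1 library, between 0 and 2409 genes were called higher and between 0 and 2718 lower, and between 0 and 2 members higher and 0 and 24 lower. The nonzero counts came from that library's removal, except 1 gene called lower, no member, without doxorubicin replicate 2. Without overlap, 1 to 4 members were higher (20.5% to 31.6% of all tested genes) and 12 to 24 lower (24% to 32.9%), with 20 lower without vehicle replicate 1. Fewer libraries make such separation easier. The member median ran from -1.67 without doxorubicin replicate 1 to -0.98 without replicate 2. Library weights were lowest for doxorubicin replicates 1 (0.277) and 3 (0.425) and highest for vehicle replicate 2 (3.24). With them limma called 1954 genes higher and 2318 lower, with 2 members higher and 23 lower. A threshold of 0.10, chosen after seeing the data, gave 1383 and 1639 genes and 1 and 14 members. With equal totals, 3 members were higher and 7 lower without overlap, the member median was -0.95, and Trpm4 and Trpc1 reversed to 0.20 and 0.15. Over the fits without 1 library Trpc1 ran from -0.35 (without doxorubicin replicate 2) to 0.039, reversing without doxorubicin replicate 3. The other 31 members kept their direction under every alternative run for them, Kcna4 not being tested at a minimum mean of 50. The split of libraries by Xist level, in which Gja5 changed sign, is not among these alternatives. With the replicate block limma called 0 members and 0% of all tested genes at an adjusted p under 0.05, and the member median was -1.25. Same-numbered libraries did not deviate together (correlations of -0.13, 0.03 and -0.09), and 0 vehicle libraries correlated best with their own number. Kcna4 rests on about 1 to 30 estimated reads per library.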
